A study of Mus musculus with 72 samples.

Results

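The Cyp3a cytochromes P450 described here are 7 genes, Cyp3a11, Cyp3a13, Cyp3a16, Cyp3a25, Cyp3a41a, Cyp3a44 and Cyp3a59, of 21400 gene symbols in a table of liver RNA counts. They were chosen by symbol, which gave 11 probes of 30146. Of these, 10 probes passed the filter on low counts and represent all 7 genes, and the remaining probe, Cyp3a16_30712, held 1 count in 71 libraries. The table holds 3 further Cyp3a probes that are not among the members: Cyp3a57 with 1 count in all, and both probes of Cyp3a41b, a near-identical copy of Cyp3a41a that is given beside it below. The livers came from female B6C3F1 mice, an F1 hybrid of C57BL/6 and C3H, 9 to 11 weeks of age and housed singly. They drank water with tertiary butyl alcohol (TBA), a solvent, at 10, 20 or 40 mg/mL, or water at 0 mg/mL as controls. Exposure lasted 14 d or 28 d, each with its own controls, so that there were 8 groups, of 9 mice each. RNA was measured from slide-mounted, formalin-fixed and paraffin-embedded liver by TempO-Seq, in which detector oligos that anneal next to each other on a transcript are joined, amplified and counted by sequencing. A library of the 40 mg/mL group at 14 d (replicate 5) was far below the others in total counts and was left out, so n = 8 in that group and n = 9 in the other 7. The 71 libraries kept held 7765545 to 12682075 counts each. The replicates are separate animals.

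Cyp3a enzymes are haem-containing monooxygenases of the hepatocyte endoplasmic reticulum that oxidise drugs, steroid hormones and bile acids, with electrons passed on by the reductase encoded by Por. Cyp3a11, the main drug-metabolising member in adult mouse liver, is a classic target of the xenobiotic receptors PXR (Nr1i2) and CAR (Nr1i3). Cyp3a41a and Cyp3a44 are expressed mainly in females, and Cyp3a16 in late fetal and early postnatal life and in females, under the control of the sex-specific pattern of growth hormone release. Cyp3a25 is a constitutive gene of adult liver, Cyp3a13 is expressed in liver and gut, and Cyp3a59 is a close relative of Cyp3a25 of which little is known.

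In the RefSeq gene order of GRCm38.p6, all members lie on chromosome 5. Cyp3a13 stands alone, and the other 6 lie in 1 run of neighbouring protein-coding genes in the order Cyp3a57, Cyp3a16, Cyp3a41b, Cyp3a41a, Cyp3a44, Cyp3a11, Cyp3a25 and Cyp3a59. The bases before the start site are shown for 5 genes on which the results turn. The most abundant probes of Cyp3a41a, Cyp3a44 and Cyp3a16 varied together between animals, and those of Cyp3a11 and Cyp3a25 varied apart from them. Probes of the copy Cyp3a41b varied in part with Cyp3a11 and Cyp3a25 too. The bases are RefSeq sequences of GRCm38.p6, given 5′ to 3′ on the strand of the gene, and represent the C57BL/6J reference and not the hybrid. Each has 250 bases, except that for Cyp3a11 the last 110 are not shown because a GENCODE vM21 transcript of the gene covers them, which leaves 140. Capitals mark the nuclear receptor motif AGNTCA on either strand and the HNF4A motif CAAAGTCCA.
Cyp3a41a (chr5:145720137-145720386, minus strand): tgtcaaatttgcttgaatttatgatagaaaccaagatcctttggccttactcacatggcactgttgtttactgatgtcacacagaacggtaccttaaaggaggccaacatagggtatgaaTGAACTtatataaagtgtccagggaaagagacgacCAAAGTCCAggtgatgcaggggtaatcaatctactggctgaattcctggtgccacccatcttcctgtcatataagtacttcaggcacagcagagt
Cyp3a44 (chr5:145805875-145806124, minus strand): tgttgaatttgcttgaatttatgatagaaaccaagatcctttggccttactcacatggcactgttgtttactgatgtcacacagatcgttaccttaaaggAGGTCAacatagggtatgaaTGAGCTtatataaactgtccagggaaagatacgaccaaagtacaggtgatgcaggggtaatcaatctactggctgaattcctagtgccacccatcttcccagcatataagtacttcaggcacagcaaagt
Cyp3a16 (chr5:145469724-145469973, minus strand): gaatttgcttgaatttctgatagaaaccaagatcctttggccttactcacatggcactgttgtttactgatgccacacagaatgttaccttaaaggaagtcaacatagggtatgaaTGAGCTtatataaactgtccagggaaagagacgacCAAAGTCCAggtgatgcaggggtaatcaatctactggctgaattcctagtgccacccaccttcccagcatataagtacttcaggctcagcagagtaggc
Cyp3a11 (chr5:145879965-145880104, minus strand): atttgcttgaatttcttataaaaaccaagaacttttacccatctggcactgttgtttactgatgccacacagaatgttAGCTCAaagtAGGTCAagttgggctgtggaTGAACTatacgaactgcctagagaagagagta
Cyp3a25 (chr5:146009619-146009868, minus strand): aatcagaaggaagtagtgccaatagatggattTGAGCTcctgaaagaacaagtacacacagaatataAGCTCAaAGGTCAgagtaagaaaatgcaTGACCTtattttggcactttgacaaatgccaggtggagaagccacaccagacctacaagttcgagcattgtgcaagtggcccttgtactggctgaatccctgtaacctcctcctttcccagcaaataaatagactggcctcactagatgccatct

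When the full 250 bases were aligned, the upstream sequences of Cyp3a16, Cyp3a41a and Cyp3a44 were 93.9% to 95.9% identical, and those of Cyp3a41a and Cyp3a41b 99.6% identical. Identities here and below, also those of transcripts, are shares of the aligned bases, with bases in gaps left out. Cyp3a25 and Cyp3a59 were 95.6% identical, Cyp3a11 was 80.9% to 83.3% identical to Cyp3a16, Cyp3a41a and Cyp3a44, and no member was more than 68.3% identical to Cyp3a13. AGNTCA was present in 6 of the 7 members, all but Cyp3a13, and in 41.2% of 27025 mouse promoters of the same length on either strand. As a direct repeat spaced by 4 bases it was found in Cyp3a11 alone among the members, from 172 to 157 bases before the start, and in 0.111% of all promoters. As a direct repeat spaced by 1 base it was found in Cyp3a25 and Cyp3a59 and in 0.167% of all promoters. CAAAGTCCA was present in Cyp3a11, Cyp3a16 and Cyp3a41a and in 0.381% of all promoters. In Cyp3a11 it lies in the stretch that is not shown. The letters TTCNNNGAA, the STAT5 motif, were in 0 of the 7 members and in 7.18% of all promoters. These matches describe letters within these windows only.

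Counts are given as CPM, counts scaled to a common library total, after adjustment of each library by the TMM method, which sets libraries side by side on the bulk of their probes. Where a gene has several probes, the most abundant one describes it. Values are compared between animals for 1 probe at a time, not between genes, since detector oligos differ in efficiency. Over the 71 livers, Cyp3a11 ranged from 148 to 1431 CPM, Cyp3a25 from 320.5 to 1834, Cyp3a41a from 196 to 1549 and Cyp3a13 from 29.2 to 295. Cyp3a44 ranged from 2.10 to 76.0 CPM. Cyp3a16 ranged from 0 to 371 CPM, with 4 libraries at 0, which at their depth allows up to 0.214 to 0.313 CPM. Cyp3a59 was low throughout, from 0 (1 library, which allows up to 0.264 CPM) to 7.20 CPM. Ordered by group mean, the 40 mg/mL group at 14 d was the lowest of the 8 for Cyp3a11, Cyp3a16, Cyp3a25, Cyp3a41a and Cyp3a44, the second lowest for Cyp3a13 and the third highest for Cyp3a59. Cyp3a16, Cyp3a41a and Cyp3a44 all had their highest mean in the 10 mg/mL group at 28 d, Cyp3a11 and Cyp3a25 in the 10 mg/mL group at 14 d, Cyp3a13 in the 20 mg/mL group at 14 d and Cyp3a59 in the 20 mg/mL group at 28 d. In 0 of the 49 pairs of neighbours in these orders did the means differ by more than the larger of the SDs. Neighbours in such an order are the closest means, so this count bears on single steps only, not on groups farther apart.

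**Figure D1:**
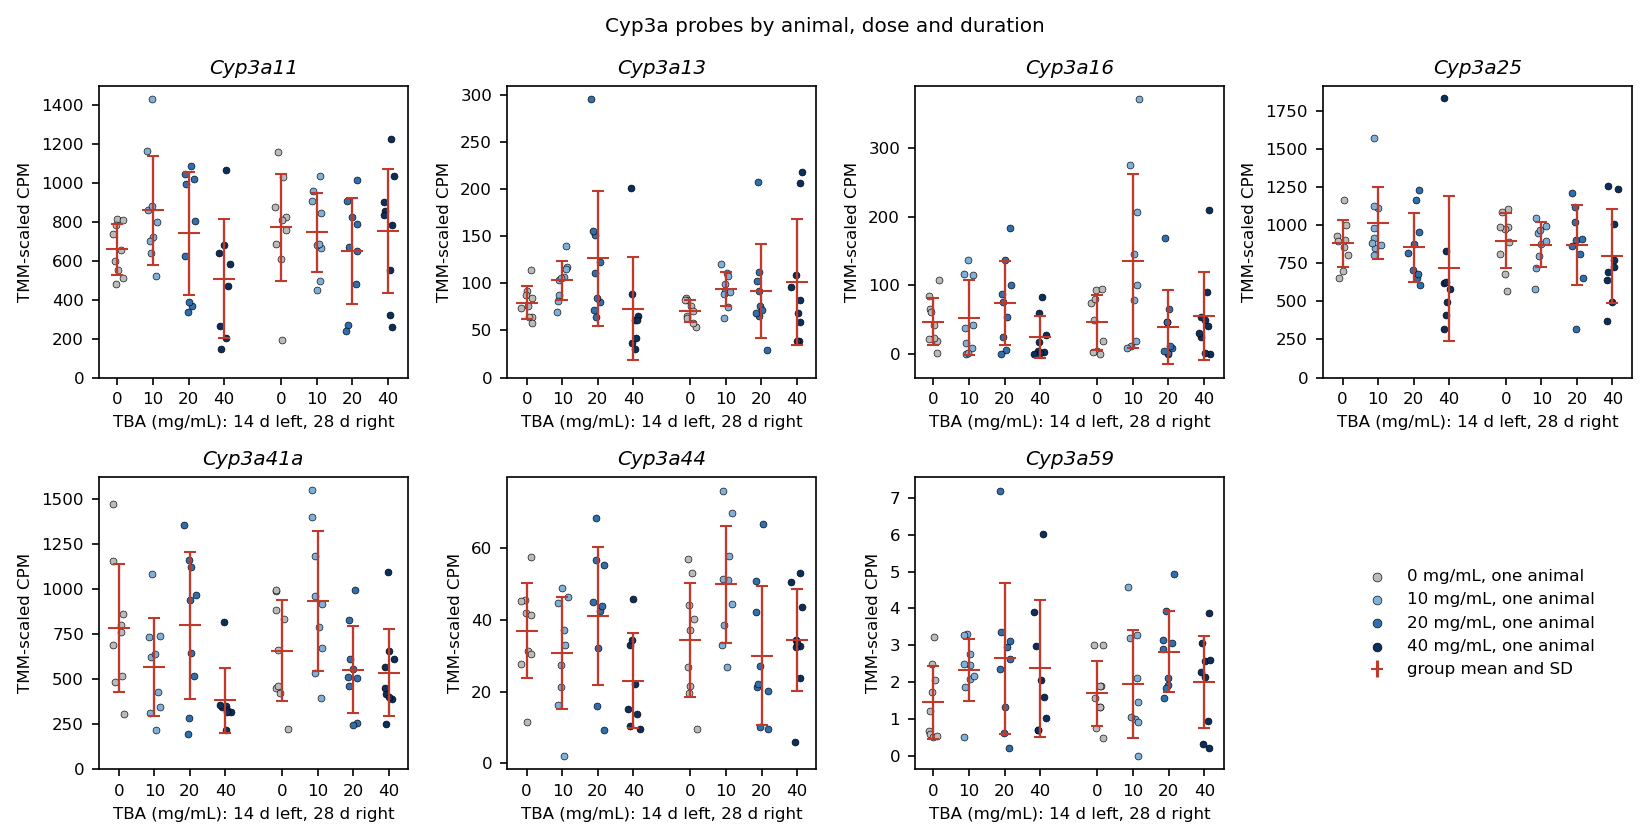
TMM-scaled CPM of the main probe of each gene (y axis, linear, own range per gene) in each animal (points) by TBA dose in mg/mL (x axis, 14 d left and 28 d right), with the group mean and SD in red. The Cyp3a41a values of the 40 mg/mL group at 14 d lie between 219 and 816 CPM against 306 to 1471 in the controls, and 7 of 8 overlap with them.

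The comparison of 40 mg/mL with the controls at 14 d asks what the highest dose did to these transcripts after the shorter exposure. Cyp3a41a fell about 2-fold, and it was the only one of the 10 member probes to pass the test in any comparison. No member rose. In this comparison 6.52% of all 17050 features passed, 3.68% lower and the others higher, against 1 of 10 member probes. The test was edgeR's quasi-likelihood test with Benjamini-Hochberg adjustment over all features at 0.05. The median log2 fold change was -0.48 over the member probes and 0.06 over all features.

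Cyp3a41a, a female-predominant steroid hydroxylase gene, measured 306, 762 and 1471 CPM (lowest, median and highest) in the 9 controls at 14 d. In the 8 livers of the 40 mg/mL group the lowest, median and highest were 219, 337 and 816 CPM. The dosed animals other than replicate 4 all lay at or below 354 CPM, near the low end of the controls, so the groups overlapped, and 1 of 8 lay below every control. The mean went from 782 ± 356 CPM (SD, n = 9) to 381 ± 181 (SD, n = 8), a log2 fold change of -1.04 (SE 0.33, 95% interval -1.71 to -0.37, adjusted p = 0.0457). The call is close to the threshold: of 17 fits that each left out 1 of these libraries, 4 kept it, with log2 fold changes from -1.30 to -0.87 and adjusted p from 0.0101 to 0.123. It was lost without control replicate 1, 2, 5, 6, 8 or 9 and without dosed replicate 1, 2, 3, 6, 7, 8 or 9, and also in limma with quality weights (-0.84, adjusted p = 0.207), with library totals alone (-0.62, adjusted p = 0.116) and when samples were permuted exactly (adjusted p = 0.0954).

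The copy Cyp3a41b was also lower. Its probe Cyp3a41b_30917 went from 1078 ± 388 CPM (SD, n = 9) to 516 ± 269 (SD, n = 8), a log2 fold change of -1.06 (SE 0.30, adjusted p = 0.0219), and 5 of 8 dosed livers lay below every control. Its probe Cyp3a41b_73471 had a log2 fold change of -1.10 (SE 0.32, adjusted p = 0.0231). With the log2 TMM factor of each library as a covariate both calls were lost, with -0.32 for Cyp3a41b_30917 and -0.20 for Cyp3a41b_73471 (adjusted p = 0.636 and 0.781). Transcripts of Cyp3a41a and Cyp3a41b in GENCODE vM21 are 99.9% identical and share 93.7% of their stretches of 50 bases, so reads of these probes cannot be assigned with certainty to either gene. An alternative added once the values were known summed the 3 probes into 1 feature, and its log2 fold change was -1.07 (adjusted p = 0.0166).

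Cyp3a44, the neighbouring female-predominant gene, measured 11.6, 41.5 and 57.4 CPM (lowest, median and highest) in the controls at 14 d and 9.62, 18.6 and 45.8 at 40 mg/mL. The groups overlap, with 2 of 8 dosed livers below every control. The log2 fold change was -0.69 (SE 0.40, 95% interval -1.48 to 0.10, adjusted p = 0.357), and that of its other probe -0.58 (SE 0.46). Cyp3a16 measured 1.82, 42.2 and 107 CPM in these controls and 0.697, 11.0 and 83.7 at 40 mg/mL, a log2 fold change of -0.94 with a wide error (SE 0.97, 95% interval -2.88 to 1.01, adjusted p = 0.678). Its other probe passed the filter on low counts but was at 0 in 28 of the 71 libraries (log2 fold change -1.40, SE 1.14). Neither gene passed the test, and the intervals include no difference as well as a fall of the size seen in Cyp3a41a.

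Cyp3a11, the PXR target, measured 478, 654 and 811 CPM (lowest, median and highest) in the controls at 14 d. At 40 mg/mL it measured 148, 528 and 1066 CPM. The dosed livers lay on both sides of the controls, 4 of 8 below all of them and 1 above all of them. The log2 fold change was -0.38 (SE 0.30, 95% interval -0.97 to 0.22, adjusted p = 0.558) with a mean of 658 ± 131 CPM (SD, n = 9) in the controls and 507 ± 304 (SD, n = 8) at 40 mg/mL. Its other probe gave -0.30 (SE 0.21). Because Cyp3a41a passed and Cyp3a11 did not, their ratio within each library, which does not depend on the scaling, was tested. Its log2 value was 0.14 ± 0.85 (SD, n = 9) in the controls and -0.25 ± 1.00 (SD, n = 8) at 40 mg/mL, a difference of -0.39 (exact permutation test, two-sided, p = 0.392, adjusted over the 2 durations 0.662). A difference in response between these genes was therefore not shown, and at 28 d the same ratio differed by -0.20 (exact permutation p = 0.662, adjusted 0.662).

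Cyp3a25 measured 657, 897 and 1163 CPM (lowest, median and highest) in the controls at 14 d and 321, 603 and 1834 at 40 mg/mL. Of the dosed livers 6 of 8 lay below every control, while replicate 9, the highest of all 71 libraries, lay above them. The log2 fold change was -0.30 (SE 0.21, 95% interval -0.72 to 0.13, adjusted p = 0.492), and without replicate 9 it was -0.66 and passed (adjusted p = 0.0317). Cyp3a13 measured 57.8, 75.4 and 114 CPM in the controls and 30.0, 61.4 and 200.4 at 40 mg/mL, again with replicate 9 the highest, and its log2 fold change was -0.12 (SE 0.30, adjusted p = 0.892). Cyp3a59 was 1.45 ± 0.990 CPM (SD, n = 9) in the controls and 2.37 ± 1.85 (SD, n = 8) at 40 mg/mL, a log2 fold change of 0.71 (SE 0.49, adjusted p = 0.470). Replicate 9 thus held the highest value of its group in Cyp3a11, Cyp3a13, Cyp3a25 and Cyp3a59 and the lowest in Cyp3a16.

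No member probe passed in any of the other comparisons. The linear trend over doses at 14 d, in which 7.99% of all features passed, gave Cyp3a41a a change of -0.23 log2 units per 10 mg/mL (SE 0.08, unadjusted p = 0.00698, adjusted p = 0.0726). Both Cyp3a41b probes passed there (-0.25, adjusted p = 0.0232, and -0.28, adjusted p = 0.0160). The means of Cyp3a41a were not graded with dose, with 568 ± 271 CPM at 10 mg/mL and 797 ± 406 at 20 mg/mL (SD, n = 9 each) beside 782 ± 356 in the controls. At 10 mg/mL for 14 d 0% of all features passed and 0 member probes had an unadjusted p under 0.05. At 20 mg/mL for 14 d 0.0352% passed, and Cyp3a13 had the smallest p among the members (log2 fold change 0.67, SE 0.29, unadjusted p = 0.0234, adjusted p = 0.70), with 126 ± 71.4 CPM against 79.3 ± 17.3 in the controls.

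At 28 d, the share of all features that passed was 0% at 10 mg/mL, 0.158% at 20 mg/mL, 0.00587% at 40 mg/mL and 0.129% in the trend, and 0 member probes had an unadjusted p under 0.05 in any of these. At 40 mg/mL Cyp3a41a measured 248, 448 and 1090 CPM (lowest, median and highest) against 221, 658 and 995 in the 28 d controls, and 8 of 9 dosed livers lay within the range of the controls (log2 fold change -0.29, SE 0.32, 95% interval -0.93 to 0.35, adjusted p = 0.969). Cyp3a11 measured 257, 833 and 1222 CPM against 193, 806 and 1156 in the controls (log2 fold change -0.04, SE 0.29, 95% interval -0.62 to 0.54). Cyp3a25 had a log2 fold change of -0.17 (SE 0.21), Cyp3a44 0.00 (SE 0.38), Cyp3a16 0.27 (SE 0.93) and Cyp3a59 0.22 (SE 0.48). Among the main probes that of Cyp3a13 was farthest above its controls, with 102 ± 66.8 CPM against 70.6 ± 11.4 (SD, n = 9 each, log2 fold change 0.52, SE 0.29, adjusted p = 0.810), and 4 of 9 dosed livers lay above every control and 2 below. The less abundant probes gave 1.24 (SE 1.03) for Cyp3a16, 0.09 (SE 0.44) for Cyp3a44 and 0.00 (SE 0.20) for Cyp3a11. At 10 mg/mL for 28 d Cyp3a16 was 135 ± 127 CPM against 46.5 ± 40.2 (log2 fold change 1.54, SE 0.94, adjusted p = 0.999).

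The effect of 40 mg/mL was set against itself between durations by an interaction term, in which 0% of all features passed. For Cyp3a41a it was 0.75 log2 units higher at 28 d than at 14 d (SE 0.46, 95% interval -0.17 to 1.66, adjusted p = 0.892), so a difference between the durations was not shown. The comparison of 28 d with 14 d controls, in which 0% of all features passed, had log2 differences of the main probes between -0.25 (Cyp3a41a) and 0.23 (Cyp3a11 and Cyp3a59). DESeq2 called 1 member probe in the 14 d trend, and in the other 8 comparisons without a call neither DESeq2 nor limma called any member probe.

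**Figure D2:**
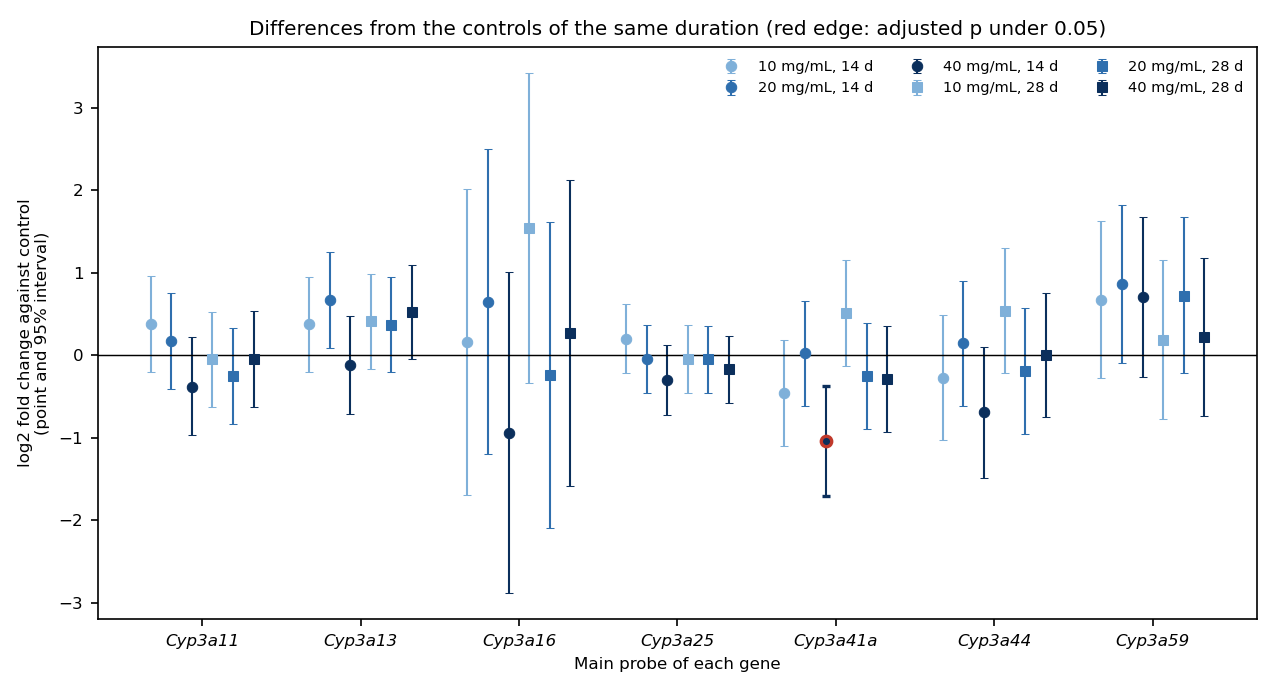
Log2 fold change (y axis) of the main probe of each gene (x axis) against the controls of the same duration, with 95% intervals, for 3 doses at 14 d (circles) and 28 d (squares). The red edge marks the only call, Cyp3a41a at 40 mg/mL for 14 d (-1.04), and the widest intervals belong to Cyp3a16.

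The spread between animals was wider at 40 mg/mL than in the controls for most members. At 14 d the coefficient of variation was 60.0% at 40 mg/mL against 19.9% in the controls for Cyp3a11, 66.7% against 17.4% for Cyp3a25 and 74.7% against 21.8% for Cyp3a13. Part of this came from 1 animal: without replicate 9 the coefficient at 40 mg/mL was 51.6% for Cyp3a11, 30.0% for Cyp3a25 and 36.6% for Cyp3a13. For Cyp3a41a it was 47.5% against 45.5%, and without replicate 4 it was 14.6%, below the controls. It was larger at 40 mg/mL than in the controls for 7 of 7 main probes at 14 d and for 6 of 7 at 28 d, beside 76.4% and 63.1% of all features, so most other features shared this direction. On leaving out each dosed library in turn the counts were 6 to 7 at 14 d and 4 to 6 at 28 d, with 4 without replicate 1. For Cyp3a13 the coefficient at 28 d was 65.8% at 40 mg/mL and 16.2% in the controls.

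Between animals of the same group, Cyp3a16, Cyp3a41a and Cyp3a44 moved together. The deviations of log2 CPM from the group means correlated with Pearson's r of 0.82 for Cyp3a41a and Cyp3a44, 0.80 for Cyp3a41a and Cyp3a16 and 0.85 for Cyp3a44 and Cyp3a16 (71 libraries). In each of the 8 groups taken alone these 3 correlations were above 0, with r from 0.56 to 0.97. In 6 of 8 groups 1 animal held the lowest value of all 3 genes, and in 6 of 8 groups 1 animal held the highest. Among the 14 d controls replicate 4 was lowest, with 306 CPM of Cyp3a41a, 11.6 of Cyp3a44 and 1.82 of Cyp3a16. Replicate 9 was highest, with 1471, 57.4 and 107 CPM. The 3 genes of replicate 9 thus lay far above those of replicate 4 although neither animal was given TBA. At 10 mg/mL for 28 d replicate 9 was lowest, with 395, 26.9 and 9.19 CPM, and replicate 1 highest, with 1549, 76.0 and 371 CPM. At 10 mg/mL for 14 d replicate 2 had 216 CPM of Cyp3a41a, 2.10 of Cyp3a44 and 0 of Cyp3a16. The TMM factor of this library was 1.258, the highest of its group (0.932 ± 0.130, SD, n = 9).

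Cyp3a11, Cyp3a13 and Cyp3a25 formed another set. Their r was 0.70 for Cyp3a11 and Cyp3a25, 0.73 for Cyp3a13 and Cyp3a25 and 0.56 for Cyp3a11 and Cyp3a13, each above 0 in 7 of 8 groups. In 2 of 8 groups 1 animal was lowest in all 3. The Cyp3a41b probes, unlike Cyp3a41a (0.15), correlated with Cyp3a11 at 0.51 and 0.65, although all 3 probes correlated with each other at 0.81 to 0.96. Between the main probes of the sets r ranged from -0.09 (Cyp3a16 and Cyp3a25) to 0.22 (Cyp3a11 and Cyp3a44), and Cyp3a59 reached at most 0.29 with any member. The less abundant probe of Cyp3a44 separated less, with r of 0.45 with Cyp3a11, 0.30 with Cyp3a13 and 0.29 with Cyp3a25. The 10 mg/mL animal at 14 d with the lowest Cyp3a41a (replicate 2) was also the lowest of its group in Cyp3a11 (518.5 CPM), whereas the 14 d control with the lowest Cyp3a41a (replicate 4) had 808.5 CPM of Cyp3a11, near the top of its group.

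These correlations describe the libraries and carry no test, since the points share the scaling of their library. Within groups, log2 CPM correlated with the log2 TMM factor at r = -0.82 for Cyp3a11, -0.64 for Cyp3a25, -0.62 for Cyp3a13, -0.48 for Cyp3a44, -0.29 for Cyp3a41a and -0.24 for Cyp3a16, and at -0.62 and -0.72 for the Cyp3a41b probes. Scaled by library totals alone, r was 0.77 for Cyp3a41a and Cyp3a44, 0.77 for Cyp3a41a and Cyp3a16 and 0.87 for Cyp3a44 and Cyp3a16, but 0.45 for Cyp3a11 and Cyp3a25, 0.58 for Cyp3a13 and Cyp3a25 and 0.30 for Cyp3a11 and Cyp3a13. The correlations of the first set thus moved little with the scaling, and those of the other set were lower without it. Transcripts of Cyp3a16, Cyp3a41a and Cyp3a44 are 92% to 95% identical to each other, and share 1.93% to 11.5% of their stretches of 50 bases. Cyp3a11, whose transcript is 94.5% identical to that of Cyp3a41a with 6.32% of its stretches shared, correlated with it at 0.15. The Cyp3a11 transcript is 94.4% identical to that of Cyp3a41b, with 5.88% of its stretches shared. Cyp3a11 correlated with the Cyp3a41b probes at 0.51 and 0.65. Whether probes bind transcripts other than their own was not tested. Cyp3a25 and Cyp3a59, with transcripts 97.0% identical, correlated at 0.29, and at 0.38 with library totals alone.

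**Figure D3:**
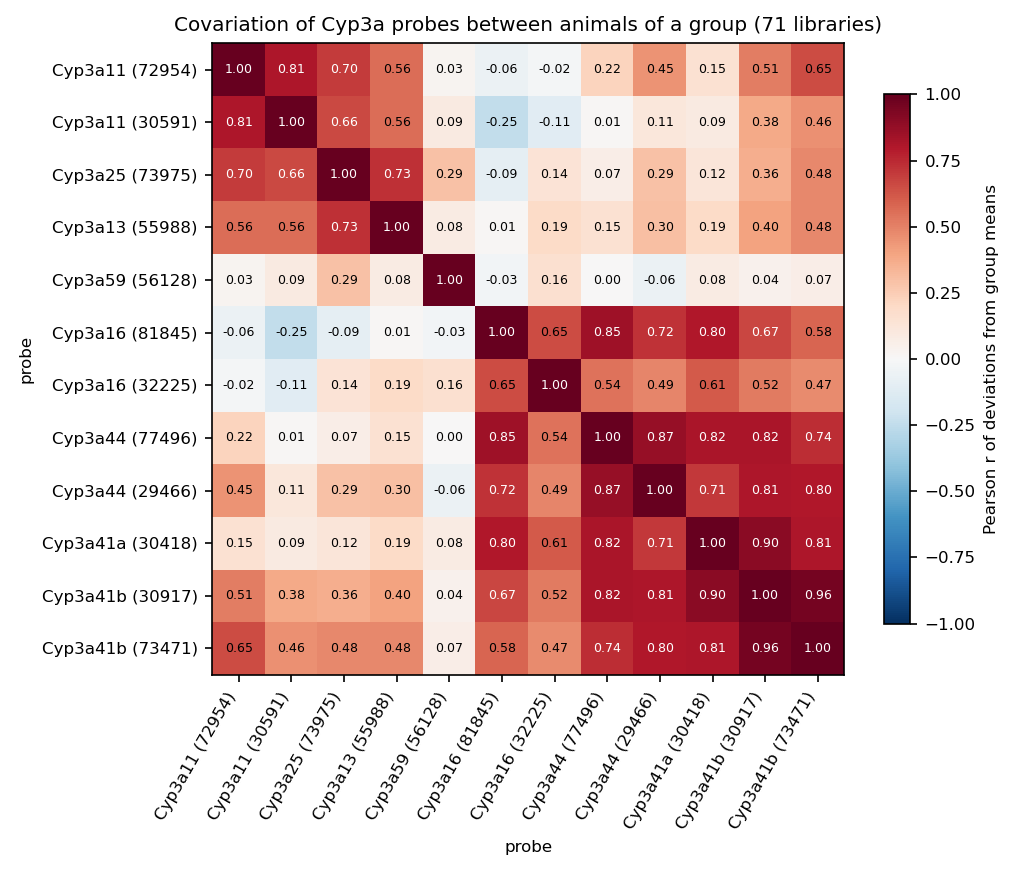
Pearson's r (colour and number) between Cyp3a probes (both axes, probe number in brackets) of the deviations of log2 CPM from the group means over 71 libraries. Probes of Cyp3a16, Cyp3a44 and Cyp3a41a, with those of the copy Cyp3a41b, form the lower right block (0.47 to 0.96), Cyp3a11, Cyp3a25 and Cyp3a13 form the upper left block (0.56 to 0.81), and the Cyp3a41b probes (0.36 to 0.65) and the less abundant Cyp3a44 probe (0.11 to 0.45) also correlate with the latter.

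**Figure D4:**
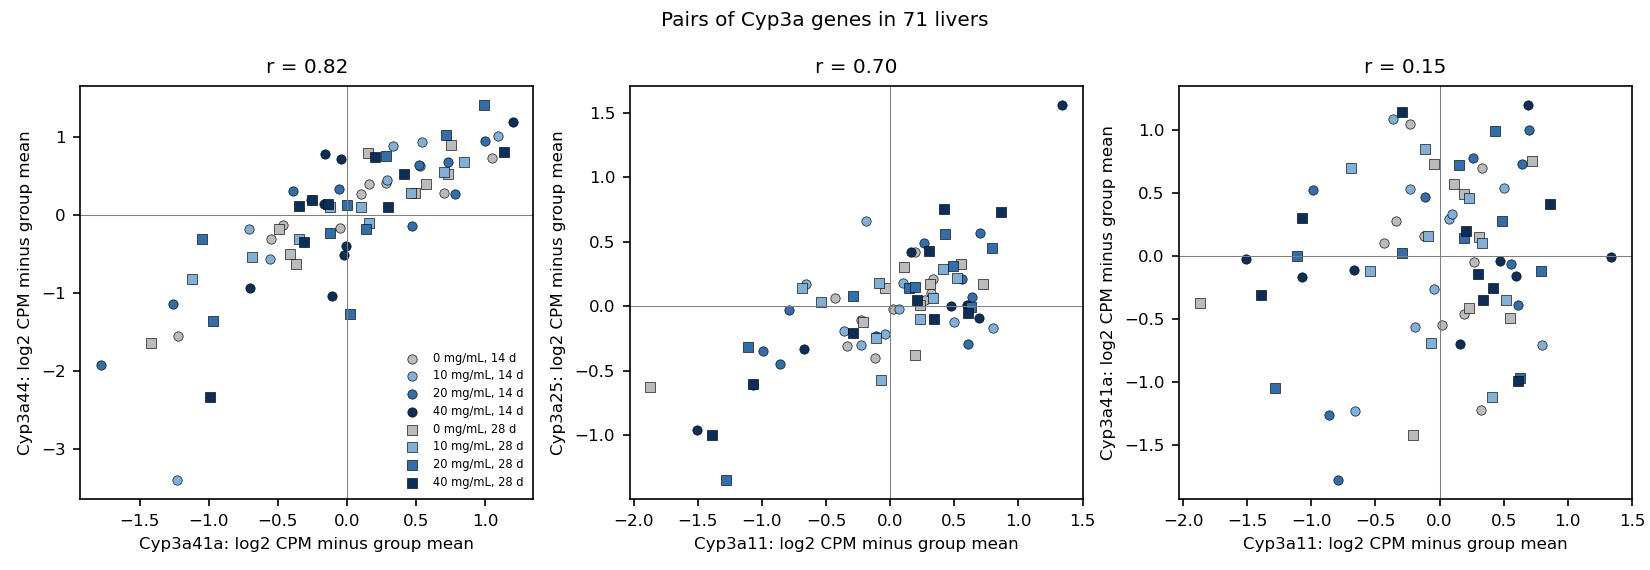
Deviations of log2 CPM from the group mean in 71 livers (points, shaded by dose, circles 14 d and squares 28 d) for Cyp3a44 against Cyp3a41a, Cyp3a25 against Cyp3a11 and Cyp3a41a against Cyp3a11 (left to right). The points follow a line in the left panel (r = 0.82), less closely in the middle panel (r = 0.70), and form a cloud in the right panel (r = 0.15). Only main probes are shown. The Cyp3a41b probes correlated with Cyp3a11 at 0.51 and 0.65, and the less abundant Cyp3a44 probe at 0.45.

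Of 9961 probes outside Cyp3a with a mean of at least 5 CPM, the 3 most like each member by the same measure (71 libraries) differed between the sets. Cyp3a11 was most like Cyp2c29 (r = 0.89), a P450 of the Cyp2c family, Ugt2a3 (0.88), a glucuronosyltransferase, and Ces2a (0.87), a carboxylesterase. Cyp3a25 was most like Azgp1 (0.85), a plasma glycoprotein gene, Abcc3 (0.81), an efflux transporter, and Cyp2c29 (0.79). Cyp3a13 was most like Crp (0.86), an acute-phase protein gene, Slc16a10 (0.81), an amino acid transporter, and Man2a1 (0.81), a Golgi mannosidase. Cyp3a41a was most like Sult3a1 (0.57), a female-predominant sulfotransferase, Rdh16f2 (0.57), a retinol dehydrogenase family gene, and Prdx4 (0.57), a peroxiredoxin. Cyp3a44 was most like Cyp2c69 (0.73), a female-predominant P450, H2-T23 (0.71), a class I histocompatibility gene, and Ctsc (0.70), a lysosomal protease. Cyp3a16 was most like A1bg (0.71), a female-predominant plasma protein gene, Cd53 (0.65) and Ctss (0.65), genes of leukocytes and antigen-presenting cells. Cyp3a59 lies below that level and was not ranked. The Cyp2c29 probe was Cyp2c29_81849 for Cyp3a11 and Cyp2c29_31205 for Cyp3a25. This ranking used TMM-scaled values, so its r also share the scaling of each library, and it was not repeated with library totals alone.

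The genes around Cyp3a in its pathways were counted in the same fit, in which 6.52% of all features passed at 40 mg/mL for 14 d and 0.00587% at 28 d. Of the 155 genes of these and the marker lists, 0 passed in edgeR at 40 mg/mL for 28 d, where 26 had an unadjusted p under 0.05, while DESeq2 called 3 and limma 13. At 20 mg/mL for 28 d 5 of the 155 passed, all at an adjusted p of 0.0497, while DESeq2 called 16 and limma 21. These 5, named after their values were seen, were Cyp2b10 (log2 fold change 3.78, SE 0.79), Gstm1 (0.87, SE 0.20) and Cyp2c29 (1.74, SE 0.40), which rose, and the male-biased Slco1a1 (-2.40, SE 0.57) and Mup20 (-1.38, SE 0.30), which fell. In the 28 d trend 2 fell, the male-biased Elovl3 (-0.51 per 10 mg/mL, SE 0.11) and the pericentral Oat (-0.31, SE 0.06). Of 26 CAR and PXR targets outside Cyp3a, 3 rose and 2 fell at 40 mg/mL for 14 d (median log2 fold change 0.26), while DESeq2 called 6 of the 26 and limma 3. Cyp2b10, the classic CAR target, rose by a log2 fold change of 4.09 (SE 0.81, adjusted p = 0.000796), Gstm1, a glutathione transferase, by 0.77 (SE 0.21) and Gadd45b by 1.88 (SE 0.52). Ugt1a1, the bilirubin glucuronosyltransferase, fell by 0.93 on the log2 scale (SE 0.25) and Cyp2c54, named after its value was seen, by 1.16 (SE 0.37). Of 17 regulators of Cyp3a transcription 0 passed in edgeR, 5 had an unadjusted p under 0.05, and DESeq2 called 2 and limma 0. PXR itself (Nr1i2) had a log2 fold change of 0.06 (SE 0.15) and CAR (Nr1i3) 0.24 (SE 0.17), both chosen for naming after their values were seen, and among the smallest p were those of Rxra (-0.39), their dimer partner, Cebpa (-0.40) and Thrb (0.47). Of 13 genes for redox partners and haem synthesis 0 passed in edgeR, 3 had an unadjusted p under 0.05, and DESeq2 called 1 and limma 0, with Por at 0.83 (SE 0.34, adjusted p = 0.141), Pgrmc1 at -0.87 (SE 0.33), Cyb5r3 at 0.37 (SE 0.15) and Cpox at -0.25 (SE 0.18).

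Genes of growth hormone signalling and sex-biased expression were counted because the Cyp3a16, Cyp3a41a and Cyp3a44 transcripts depend on that hormone. Of 10 genes of growth hormone signalling, 3 fell at 40 mg/mL for 14 d. They were the receptor Ghr (log2 fold change -0.62, SE 0.20), Igf1 (-0.85, SE 0.14) and Igfals (-1.52, SE 0.30), whose products circulate together in plasma. Cux2, a repressor of male-biased genes in female liver, was at 1.5 (SE 0.65, adjusted p = 0.177). Of 18 female-biased genes outside Cyp3a, 2 rose (Cyp17a1, 1.21, SE 0.36, and Acot3, 1.89, SE 0.51) and 2 fell (Cyp2c69, -1.69, SE 0.41, and Prlr, -0.87, SE 0.21). Of 12 male-biased genes, 0 rose and 7 fell, among them Mup20 (-1.56, SE 0.31), Cyp7b1 (-1.68, SE 0.33), Elovl3 (-1.77, SE 0.46) and Serpina1e (-1.08, SE 0.22). The medians were -0.42, 0.04 and -1.62 for the 3 lists and 0.06 over all features.

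Cell type markers were counted in the same fit. Of the 7 hepatocyte markers, which check the tissue label, all were measured and none was at 0 in any group. At 40 mg/mL for 14 d 4 of the 7 fell (Alb -0.72, Apoa1 -1.16, Ttr -0.64 and Serpina1a -0.78) and none rose, and the summed level of the 7 was 9496 to 42566 CPM against 39522 to 56456 in the controls. Of 11 pericentral genes 6 fell, including Cyp2e1 (-1.28) and Cyp1a2 (-1.44), and their sum was 2131 to 6666 CPM against 7796 to 10979. Of 12 periportal genes 4 fell (Cyp2f2 -1.41, Cdh1 -1.16, Pigr -1.31 and Hal -0.52), and their sum was 4995 to 16742 CPM against 9392 to 19345. In bulk tissue, fewer cells of a type and less RNA per cell cannot be told apart. Of 9 measured Kupffer cell markers 0 passed, 0 had an unadjusted p under 0.05 and neither DESeq2 nor limma called any, and the sum was 106 to 349 CPM against 228 to 304. Of 7 sinusoidal endothelial markers 1 fell (Oit3 -0.58, where limma called 0) and of 8 stellate markers 1 fell (Reln -0.71), with sums of 307 to 430 against 388 to 480 CPM and of 79.4 to 187 against 130 to 178. Of 3 cholangiocyte, 5 T and B cell, 1 neutrophil and 2 erythroid markers measured 0 passed in edgeR, DESeq2 or limma, and 1, an erythroid gene, had an unadjusted p under 0.05. Their sums at 40 mg/mL and in the controls were 8.88 to 22.9 against 11.5 to 25.9, 2.78 to 9.58 against 2.87 to 12.8, 9.15 to 49.2 against 13.8 to 37.6, and 2.36 to 37.9 against 4.25 to 12.3 CPM. Epcam, Cd4, Cd8a, S100a9, Camp and Ngp were at 0 throughout the dosed group, and none of them passed the filter on low counts. S100a9, Camp and Ngp, with Mpo, were also at 0 throughout the 14 d controls, and Cd8a throughout the 28 d controls. Epcam was also at 0 in the 10 and 20 mg/mL groups at 14 d. The TMM factors differed too, with 0.897 ± 0.0336 (SD, n = 9) in the 14 d controls and 1.24 ± 0.247 (SD, n = 8) at 40 mg/mL. With the log2 factor of each library as a covariate, the log2 fold change of Cyp3a41a was -0.66 (adjusted p = 0.375) and that of Cyp3a11 0.62 (adjusted p = 0.0821). The part of these markers in the Cyp3a results was not tested.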

How the data were processed

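The values are whole-number read counts per probe as the authors deposited them, in 1 table of 30146 features for 72 liver libraries. The tools named in the submitters' processing notes are bcl2fastq 2.20, which demultiplexes reads, and Bowtie, an aligner. The genome build and counter are not given in the sources used here. Dose and duration came from the labels, which name no batch and pair no animals, and replicate numbers are listing order. A library under 100000 counts was left out. No libraries were identical, and the smallest chi-square per degree of freedom within a group was 7.15.

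The test was edgeR 4.0.16's in R 4.3.3 (TMM, filterByExpr over 8 groups, robust quasi-likelihood fit of 71 libraries, 17050 features, Benjamini-Hochberg at 0.05 per comparison), tried first on simulated data. SEs and 95% intervals derive from the test statistic. Log2 CPM used a prior count of 2 and ratios an added count of 0.5. Alternatives used DESeq2 1.42.0, limma 3.58.1, other scalings, filters and libraries. Named genes are every member, up to 4 genes per list with the smallest p at 40 mg/mL, and the 3 probes most like each member. A result for 1 listed gene is not reported here. The members, lists and alternatives were chosen with earlier results of these data known. Sequences were aligned with Biopython 1.88. Depth intervals cover counting error only.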

Additional observations from a re-analysis of the deposited data

Results flagged for a closer look

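In each of the 8 groups, the gap between the highest or lowest animal and its nearest neighbour was set against the range of the group for the main probe of each gene (Dixon's 95% limit). On linear CPM, 10 of the 56 combinations of gene and group held such an animal, each the highest of its group. Chance flags about 1 in 20 where values are normally distributed. The pattern depends on the scale: on log2 CPM, added after the values were seen, 11 values stood apart, 9 of them the lowest of their group and 2 the highest. Only those 2 (Cyp3a41a at 40 mg/mL for 14 d and Cyp3a25 at 10 mg/mL for 14 d) stood apart on both scales. The lowest on log2 CPM included the 28 d control replicate 3 in Cyp3a11, at -1.87 from the group mean with the next at -0.21. The values on linear CPM follow. At 40 mg/mL for 14 d replicate 9 stood apart in Cyp3a25 (1834 CPM, next 832.5) and in Cyp3a13 (200.4 CPM, next 88.2), and replicate 4 in Cyp3a41a (815.6 CPM, next 353.8). At 40 mg/mL for 28 d replicate 1 stood apart in Cyp3a16 (210.3 CPM, next 91.0) and in Cyp3a41a (1090 CPM, next 657). At 20 mg/mL for 28 d replicate 5 stood apart in Cyp3a13 (207.4 CPM, next 112) and in Cyp3a16 (169.5 CPM, next 65.9). At 20 mg/mL for 14 d replicate 5 stood apart in Cyp3a13 (295.2 CPM, next 155) and replicate 9 in Cyp3a59 (7.195 CPM, next 3.36). At 10 mg/mL for 14 d replicate 3 stood apart in Cyp3a25 (1574 CPM, next 1128).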

How the results depend on the processing

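At 40 mg/mL for 14 d, 1 member probe (Cyp3a41a) was called, and also with DESeq2 size factors, DESeq2, a filter at a mean of 5 CPM, the groups of the comparison alone, probes summed per gene, and Cyp3a41a and Cyp3a41b summed. The count was 0 with library totals alone, limma, no filter, the scaling factor (log2) as a covariate, the low library kept, without replicates 1 and 7 together, and by exact permutation, and 0 to 1 on leaving out each library. The log2 fold change of Cyp3a41a kept its sign in all of these, from -1.30 to -0.62. The cause of the lost calls was not tested. The 14 d trend had 0 calls, 1 in DESeq2, 1 with Cyp3a41a and Cyp3a41b summed and 0 to 2 on leaving out each library (1 without control replicate 4, 10 mg/mL replicate 2 or 40 mg/mL replicate 4, 2 without 40 mg/mL replicate 9). The other 8 comparisons had 0 member calls under every alternative run.

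Uncalled members changed sign at 14 d with library totals alone (Cyp3a13 0.27, Cyp3a25 0.11), with the covariate (Cyp3a11 0.62, Cyp3a13 0.61, Cyp3a25 0.27) and without replicates 1 and 7 (Cyp3a13 0.12). Library totals moved the median of all features at 14 d from 0.06 to 0.54. Relative to that median Cyp3a13 was at -0.27, Cyp3a25 at -0.43 and Cyp3a41a at -1.16. At 28 d signs changed with library totals (Cyp3a11 0.13), the covariate (Cyp3a11 0.44, Cyp3a25 0.02), limma (Cyp3a16 -0.24, Cyp3a44 -0.12, Cyp3a59 -0.26) and permutation (Cyp3a44 -0.01). Leaving out each library gave -0.17 to 0.08 for Cyp3a11, -0.34 to 0.47 for Cyp3a16 and -0.12 to 0.15 for Cyp3a44 there.

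All features called at 40 mg/mL for 14 d numbered 1111 (484 higher, 627 lower), but 6422 with library totals (6129 higher, 293 lower), 696 in limma (185 higher), 645 with the groups alone (234 higher), 555 with the covariate (356 higher), 464 with the low library (95 higher), 273 without replicates 1 and 7, and 607 by permutation (135 higher), whose smallest p is 8.227e-05. Calls in the 14 d trend numbered 1362, but 7295 with library totals, 782 in limma, 430 with the covariate, 658 with the low library and 232 without replicates 1 and 7. Calls at 40 mg/mL for 28 d numbered 1, but 10 with library totals, 33 in DESeq2, 218 in limma, 8 at 5 CPM, 25 with the groups alone, 66 with the covariate and 0 by permutation. Elsewhere they ranged over these settings from 0 to 12 at 10 mg/mL for 14 d (0 as reported), 0 to 25 at 20 mg/mL for 14 d (6), 0 to 18 at 10 mg/mL for 28 d (0), 0 to 515 at 20 mg/mL for 28 d (27), 4 to 350 in the 28 d trend (22), 0 to 31 for the difference between durations (0) and 0 to 3 between controls (0). Depth limits Cyp3a59 and the second probe of Cyp3a16. No paired analysis was possible because the labels carry no replicate numbers shared between groups.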
